A study of Mus musculus with 16 samples.

Results

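The genes described here carried the annotation "mitochondrion" in the tables of differing probes that the authors deposited for 2 transgenic mouse lines, and among them were enzymes that oxidise fatty acids. A probe was a member when it stood in either table with the gene ontology component term for the mitochondrion, and 6 of the 54 probes so annotated were left out by gene symbol. The remaining 48 probes, of 932 in the tables and 25697 on the arrays, represent 42 genes. The TgMsi2 table gave 41 of its 700 probes (36 genes) and the TgMsi1 table gave 7 of its 246 probes (6 genes), with 0 genes in common. Membership was therefore chosen by the measured values. Members of the TgMsi2 table are described in that line and tested only in the TgMsi1 line. Members of the TgMsi1 table are tested only in the TgMsi2 line. The ratio that chose a member compared the groups of its own line alone. The authors' test is not stated, so arrays of the other line may have entered the spread behind the p-value that chose it.

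Total RNA of whole testis from B6xCBA mice aged 3 months was hybridised to 16 Illumina bead arrays. TgMsi1 and TgMsi2 mice carried a testis-specific transgene for Musashi-1 or Musashi-2, RNA-binding proteins that control the translation and stability of messenger RNAs, and each line had its own wild-type group, Wt(TgMsi1) and Wt(TgMsi2). Each of the 4 groups had 4 arrays. The sources used here do not name the promoter that drove either transgene, and the transgenes' own transcripts were not read here, so they do not check the labels. The labels do not say that replicates are separate mice, so a p-value reflects the scatter among these arrays alone, and that scatter may be technical. Values are deposited normalized log2 signals, and a difference of 1 is a doubling of the signal. Whole testis mixes germ cells with Sertoli, Leydig and immune cells, and a change in the number of cells of a type and a change in RNA per cell cannot be told apart.

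Mitochondria break fatty acids down by beta-oxidation, a cycle in which a fatty acyl-CoA is dehydrogenated, hydrated, oxidised again and cut by a thiolase, so that acetyl-CoA leaves at each turn. The electrons pass through the electron transfer flavoprotein and its dehydrogenase to ubiquinone and the respiratory chain. In the testis, Sertoli cells oxidise fatty acids and supply lactate to germ cells, and mitochondria of Leydig cells carry out the first step of steroid synthesis.

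The beta-oxidation enzymes among the members, all chosen for their difference in this contrast, stood higher in TgMsi2 testes. The propionyl-CoA carboxylase subunit Pcca stood lower. Of 47 fatty acid oxidation genes on the array, 9 were listed higher and 1 lower, and the rest have no named value here. Acadm is the medium-chain acyl-CoA dehydrogenase, which catalyses the opening step. It read 11.72, 10.95, 11.29 and 10.78 on TgMsi2 replicates 1 to 4, against 10.65, 10.52, 10.22 and 10.29 on the Wt(TgMsi2) arrays. All 4 transgenic arrays lay above all 4 wild-type arrays, with replicates 1 and 3 highest, and the group means differed by 0.76 (SE 0.16). Echs1, the enoyl-CoA hydratase of the second step, was higher by 0.81 (SE 0.16), and Eci1, the isomerase that moves the double bond of unsaturated acyl-CoA, by 0.61 (SE 0.18). Hsd17b10, a dehydrogenase that oxidises short branched hydroxyacyl-CoA and is also a subunit of mitochondrial RNase P, was higher by 0.60 (SE 0.15). The 3 probes of Acaa2, the thiolase that closes the cycle, were higher by 0.63, 0.64 and 0.66, but they share at least 48 of their 50 bases and count as 1 measurement.

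Etfdh, the electron transfer flavoprotein dehydrogenase that hands these electrons to ubiquinone, read 9.95, 9.49, 9.91 and 9.49 in TgMsi2 and 9.20, 9.13, 8.93 and 9.04 in Wt(TgMsi2). The groups did not overlap, and the difference was 0.64 (SE 0.11). Acss1, which makes acetyl-CoA from acetate, was higher by 0.80 (SE 0.16). Hibadh, an enzyme of valine breakdown, was higher by 0.59 (SE 0.12).

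Pcca encodes the biotin-carrying subunit of propionyl-CoA carboxylase, which takes up the propionyl-CoA left from odd-chain fatty acids and some amino acids. One of its probes read 8.60, 8.81, 8.50 and 8.64 in TgMsi2 and 9.66, 9.78, 9.87 and 9.85 in Wt(TgMsi2), a difference of -1.15 (SE 0.14). The other read 9.10, 8.97, 8.93 and 8.99 against 10.01, 10.20, 10.21 and 10.14, a difference of -1.14 (SE 0.14). All 4 transgenic arrays lay below all 4 wild-type arrays at both probes. The 4 TgMsi2 arrays lay close together, at 8.50 to 8.81 and at 8.93 to 9.10. The 2 probes overlap by at most 1 base, so they read separate stretches of the transcript, and 1 of them crosses a junction between exons. That probe is shown as 1 of the 2 separate probes at which Pcca read lower. Its first 42 bases (lower case) and last 8 bases (capitals) lie in different exons on chromosome 14, plus strand, from base 123137185 to base 123189585 in the deposited table, whose genome build is not given.
Pcca probe: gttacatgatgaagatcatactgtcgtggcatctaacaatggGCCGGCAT

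**Figure D1:**
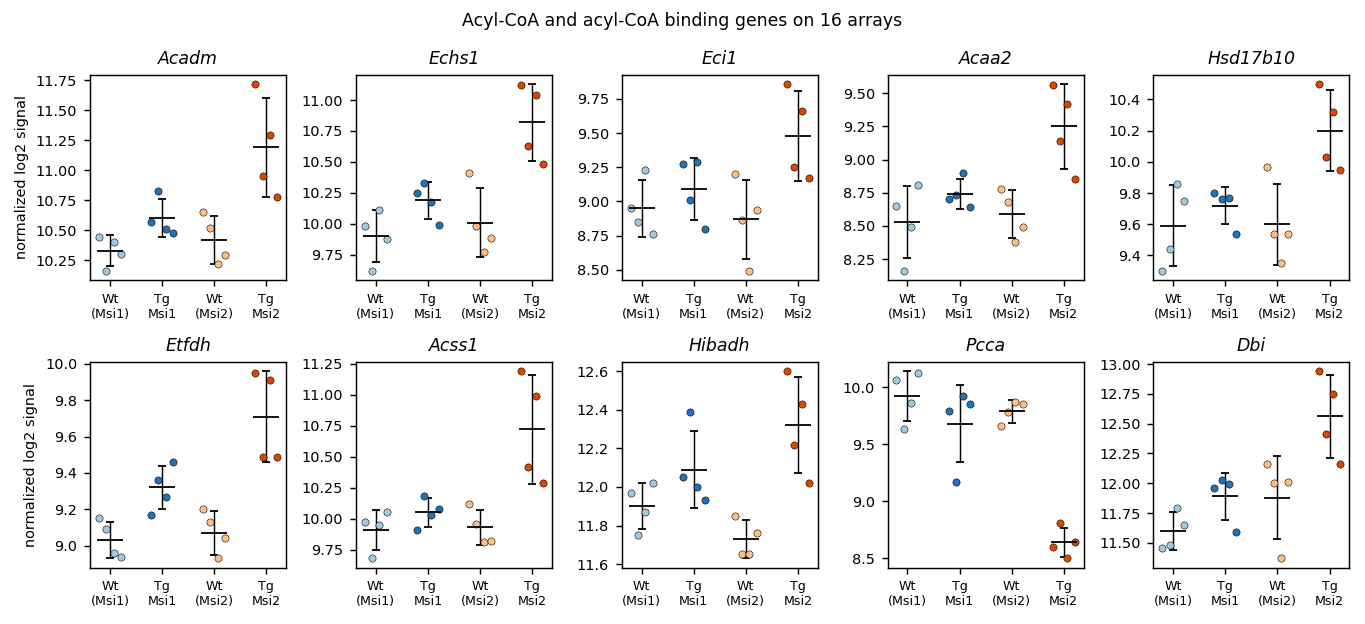
Normalized log2 signal (y axis, a different range in each panel) of 9 acyl-CoA genes and of Dbi on all 16 arrays (1 probe per gene), with points for replicates 1 to 4 from left to right and black bars for the group mean and SD (n = 4). Pcca lies below wild type on all 4 TgMsi2 arrays and Acadm above on all 4. The TgMsi1 group means lie nearer to those of their wild type. At Acadm and Etfdh all 4 TgMsi1 arrays lie above their wild-type arrays, and at Pcca replicate 2 lies below them.

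Promoters of 4 members are printed as examples, of which Acadm and Etfdh stood higher and Pcca and Coq10b lower in the same testes. The sequences are the 250 bases before the annotated gene start, from RefSeq GRCm38.p6, 5′ to 3′ on the strand of the gene, and the last base shown is position -1. Capitals mark TGACG, the core of the cAMP response element, CCAAT, and the palindrome bound by NRF1, a regulator of nuclear genes for mitochondria. A motif on the opposite strand appears as its reverse complement (CGTCA or ATTGG). All 4 examples hold TGACG, which 13 of the 33 member genes with a promoter held. Etfdh alone of the 33 holds the palindrome. The examples therefore do not stand for the members as a whole.
Acadm, chr3:153944644-153944893, minus strand: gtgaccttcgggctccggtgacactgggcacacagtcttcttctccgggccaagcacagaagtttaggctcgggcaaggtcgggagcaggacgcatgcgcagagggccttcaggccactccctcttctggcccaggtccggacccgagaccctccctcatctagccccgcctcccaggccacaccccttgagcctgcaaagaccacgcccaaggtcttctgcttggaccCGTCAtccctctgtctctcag
Etfdh, chr3:79628768-79629017, minus strand: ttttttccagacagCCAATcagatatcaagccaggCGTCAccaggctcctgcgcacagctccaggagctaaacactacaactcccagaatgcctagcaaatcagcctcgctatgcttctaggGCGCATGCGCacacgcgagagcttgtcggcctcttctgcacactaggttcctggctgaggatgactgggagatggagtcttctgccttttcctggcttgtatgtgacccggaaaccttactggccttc
Pcca, chr14:122534078-122534327, plus strand: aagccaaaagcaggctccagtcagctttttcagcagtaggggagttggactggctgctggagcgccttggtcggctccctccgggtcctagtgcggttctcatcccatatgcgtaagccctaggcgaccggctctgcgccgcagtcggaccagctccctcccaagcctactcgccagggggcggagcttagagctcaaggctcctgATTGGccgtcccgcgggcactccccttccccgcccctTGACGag
Coq10b, chr1:55052520-55052769, plus strand: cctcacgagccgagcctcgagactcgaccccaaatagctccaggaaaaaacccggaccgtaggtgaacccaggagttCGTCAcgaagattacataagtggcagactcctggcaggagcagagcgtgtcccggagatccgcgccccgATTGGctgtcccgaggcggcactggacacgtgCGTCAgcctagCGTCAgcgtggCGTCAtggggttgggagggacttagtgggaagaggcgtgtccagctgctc

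Acadm holds TGACG on the opposite strand at positions -21 to -17, and Pcca holds it on its own strand at -7 to -3. Etfdh holds it on the opposite strand at -215 to -211, with the NRF1 palindrome at -128 to -119. Coq10b holds 4 copies on the opposite strand, which begin at -173, -72, -61 and -50, so that the last 3 are spaced 11 bases apart. Promoters of 33 of the 42 member genes were matched, and each motif was searched on both strands of the 300 bases from 250 before to 50 after the gene start. A gene counted when any of its promoter entries held the motif. TGACG occurred in 13 of the 33 genes (39.4%), beside 23% of all 27025 genes with a promoter entry. It occurred in 8 of 23 genes listed higher in TgMsi2, in 3 of 4 listed lower (Coq10b, Msrb3 and Pcca), and in 2 of 6 of the TgMsi1 table. The palindrome occurred in 1 of 33 (3.03%, beside 1.07%), CCAAT in 39.4% beside 41.1%, and the TATA box TATAAA in 12.1% beside 15.7%. The whole cAMP response element TGACGTCA, which contains TGACG, and the oestrogen-related receptor site TCAAGGTCA were in 0 of 33, beside 2.03% and 0.466%. A match in these windows is a description of letters only.

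Lipid handling genes of the TgMsi2 table stood higher as well. Crls1 makes cardiolipin, the signature phospholipid of the inner mitochondrial membrane. It read 10.84, 10.42, 10.58 and 10.53 in TgMsi2 and 9.75, 9.87, 9.81 and 9.85 in Wt(TgMsi2), with no overlap and a difference of 0.78 (SE 0.12). Dbi, the acyl-CoA binding protein that also delivers ligand to the outer membrane for steroid synthesis, was higher by 0.68 (SE 0.18) and 0.73 (SE 0.22) at 2 probes whose deviations from the group means correlated with r = 0.96 over the 16 arrays. The Dbi probe shown here crosses an exon junction on chromosome 1, minus strand, between bases 122010098 and 122012999 of the deposited table, with 37 bases in lower case before the junction and 13 in capitals after it. It is shown as 1 of the 2 separate Dbi probes whose values moved together.
Dbi probe: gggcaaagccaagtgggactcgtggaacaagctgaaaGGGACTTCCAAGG

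Respiration genes stood on both sides of wild type. Ndufa4, a subunit of cytochrome c oxidase, was higher in TgMsi2 by 0.69 (SE 0.19), and Chchd10, a protein of the intermembrane space, by 0.83 (SE 0.16). Coq10b, which binds ubiquinone (coenzyme Q), read 9.85, 10.26, 10.02 and 10.14 in TgMsi2 and 10.83, 11.02, 11.04 and 10.65 in Wt(TgMsi2). All 4 transgenic arrays were below the wild-type arrays, with a difference of -0.82 (SE 0.13). Gpd2, the flavoprotein of the glycerol phosphate shuttle, read 9.15, 9.52, 9.06 and 9.51 in TgMsi2, where the Wt(TgMsi2) mean was 9.93 ± 0.06 (SD, n = 4), a difference of -0.62 (SE 0.11). The groups did not overlap, and replicates 1 and 3 were the lowest.

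Membrane and amino acid genes of the TgMsi2 table were higher in that line. Slc25a5, an ADP/ATP carrier of the inner membrane, was higher by 0.81 (SE 0.17), Mtch1, a carrier-like protein of the outer membrane, by 0.68 (SE 0.18), and Tmem14c, a carrier of haem precursors, by 0.61 (SE 0.11). The 3 pyridoxal phosphate aminotransferases among the members were Oat, the ornithine enzyme (0.79, SE 0.15), Abat, which breaks down GABA (0.67, SE 0.16), and Got2, the aspartate enzyme of the malate shuttle (0.63, SE 0.13). Transaminase activity was annotated to 3 of the 42 member genes and to 1 of the 798 other genes of the tables.

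Redox enzymes were higher, apart from Msrb3. Adh1, an alcohol dehydrogenase that also acts on retinol, varied more between TgMsi2 arrays than the other members. One of its probes read 9.62, 8.73, 9.64 and 8.30 in TgMsi2 and 8.30, 8.29, 8.15 and 8.07 in Wt(TgMsi2), and the other read 9.47, 8.81, 9.83 and 8.26 against 8.32, 8.38, 8.18 and 8.11. Replicates 1 and 3 were far above wild type and replicate 4 was level with the highest wild-type array or within the wild-type range. The differences were 0.87 (SE 0.23) and 0.84 (SE 0.25). Both Adh1 probes are shown because they read different parts of the transcript and gave this same order of arrays. The first lies on chromosome 3, plus strand, from 137945424 to 137945473. The second crosses a junction between 137949894 and 137951739, with 23 bases before it and 27 (capitals) after it.
Adh1 first probe: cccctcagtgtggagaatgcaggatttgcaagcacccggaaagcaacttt
Adh1 second probe: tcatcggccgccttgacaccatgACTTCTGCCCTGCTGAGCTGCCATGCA

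Adh5, which oxidises the glutathione adduct of formaldehyde, was higher in TgMsi2 by 0.62 (SE 0.13), Aldh2, the mitochondrial aldehyde dehydrogenase, by 0.62 (SE 0.19), and Prdx3, a mitochondrial peroxidase, by 0.61 (SE 0.15). Msrb3, which repairs oxidised methionine, was lower, with a difference of -0.67 (SE 0.13). Hint2, a mitochondrial hydrolase, was higher by 0.66 (SE 0.14). Oxidoreductase activity was annotated to 10 of the 42 member genes (23.8%), and to 28 of the 798 other genes of the tables.

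The annotation also brought in 7 genes whose products work mainly at other sites. Ctsb, the lysosomal protease cathepsin B, read 13.07, 12.38, 13.05 and 12.13 in TgMsi2 and 11.87, 11.36, 11.16 and 11.07 in Wt(TgMsi2), and its difference of 1.29 (SE 0.23) was the largest of all 48 probes. Gm2a, a lysosomal activator of ganglioside breakdown (0.75), Gapdh of glycolysis (0.71), the adaptor Ywhaz (0.68), the lysosomal and secreted protein Grn (0.66) and Dpysl2 of the cytoskeleton (0.62) were higher too. Processed copies of Gapdh in the mouse genome could share its probe. Azin2, an antizyme inhibitor listed under the older name Adc, was lower, with a difference of -0.69 (SE 0.22).

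**Figure D2:**
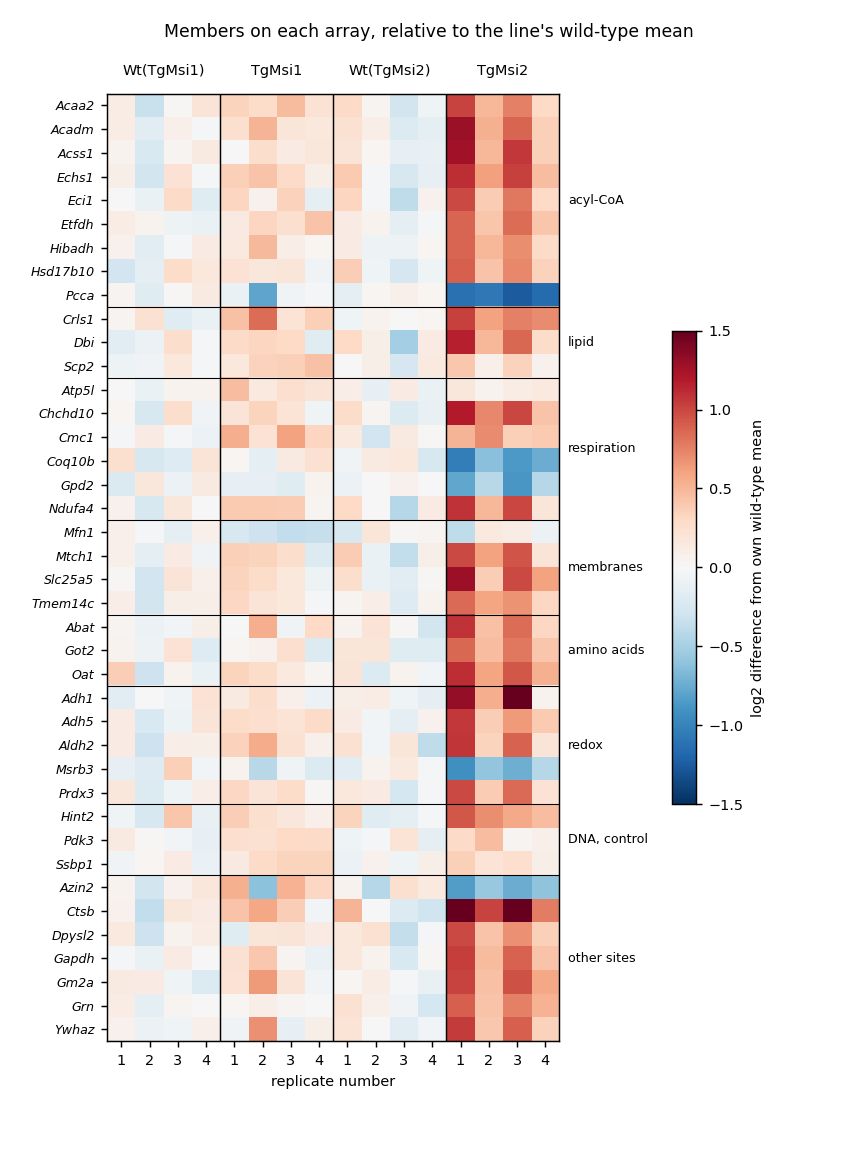
Log2 difference of 40 of the 42 member genes (rows, probes of a gene averaged, grouped by role) on each of the 16 arrays (columns) from the mean of the 4 wild-type arrays of the same line, with red for higher and blue for lower and the colour limited to 1.5 in each direction. The TgMsi2 columns are red for most genes and blue for Pcca, Coq10b, Gpd2, Msrb3 and Azin2, and replicates 1 and 3 are deeper than 2 and 4.

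The 35 probes listed higher in TgMsi2 ordered its arrays alike. Replicates 1 and 3 both lay above replicates 2 and 4 at 34 of the 35 probes, and replicate 1 was highest at 33. The median of the 35 probes, relative to the Wt(TgMsi2) mean, was 1.05, 0.49, 0.87 and 0.36 on replicates 1 to 4, and between -0.18 and 0.21 on the wild-type arrays. The median difference between the groups was 0.68 (0.59 to 1.29), beside 0.75 for the 373 other probes listed higher, and it was 0.41 without replicates 1 and 3. The 6 probes listed lower had a median difference of -0.75 (-1.15 to -0.62), and -0.64 without these replicates. The arrays were clear of the wild-type range at 27 of the 35 probes, beside 7.6% of all probes, and they were below it at all 6 probes listed lower, beside 8.42% of all probes. Nothing is read from these counts because the same contrast chose the members.

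Replicates 1 and 3 also stood above 2 and 4 over the whole profile and in the Leydig and Sertoli markers, but not in the macrophage markers. In the round and elongating spermatid markers and in Adipoq they stood below 2 and 4. The first principal component of all probes held 40.9% of the variance, with the TgMsi2 arrays at 35.3, 13.6, 30.2 and 9.2, TgMsi1 replicate 2 at 10.7, and the other 11 arrays between -16.4 and -3.5. Of 10 Leydig cell markers, 3 (Insl3, Hsd17b3 and Vcam1) had a named value, all listed higher in TgMsi2. Their summed linear signal was 22399, 17278, 20610 and 14309 in TgMsi2 against 8411 to 12029 in Wt(TgMsi2). Insl3 gave most of this sum on every array of the series. In log2 the other markers overlapped wild type, Hsd17b3 with 9.09 to 10.39 against 7.98 to 9.52 and Vcam1 with 10.29 to 11.79 against 9.50 to 10.30. Of 9 Sertoli cell markers on the array, 4 (Aard, Amhr2, Cldn11 and Rhox5) had a named value, with a summed signal of 58030, 44643, 56238 and 39881 against 29748 to 34637. Of 8 macrophage markers, 4 had a named value and summed to 2945, 3093, 2671 and 2704 against 1440 to 1694. Of 9 round spermatid markers, 4 had a named value and were lower, with sums of 5175, 8110, 5162 and 8615 against 10408 to 12399. Of 9 elongating spermatid markers, 2 summed to 13497, 15940, 14164 and 15856 against 21670 to 23493. Of 8 late spermatocyte markers, 2 summed to 3721, 4819, 4422 and 4387 against 4599 to 5286. The only adipocyte marker of 11 with a named value, Adipoq, was lower, at 395, 492, 438 and 567 against 1394 to 2217. Of 5 blood markers, 0 had a named value. A marker had a named value only when it stood in either deposited table, so the direction of these sums was not chosen independently. The part of these cell types in the members' differences was not tested.

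**Figure D3:**
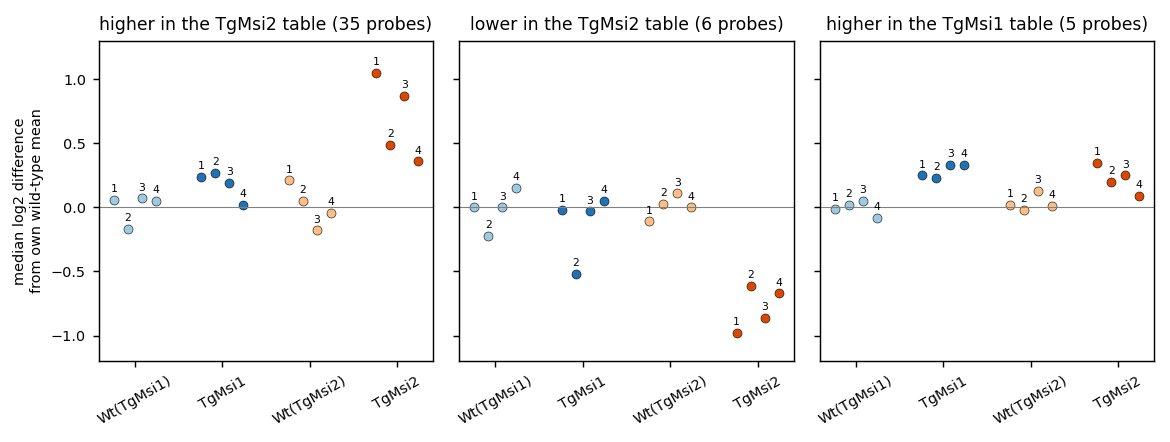
Median log2 difference (y axis) of the member probes on each array (points, numbered by replicate) from the mean of the wild-type arrays of the same line, for the 35 probes listed higher and the 6 listed lower in the TgMsi2 table and the 5 listed higher in the TgMsi1 table. The 35 probes read 1.05, 0.49, 0.87 and 0.36 on the TgMsi2 arrays and 0.24, 0.27, 0.19 and 0.02 on the TgMsi1 arrays.

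In the TgMsi1 line, whose differences did not choose them, 0 of the 41 TgMsi2 probes changed, where 0.0117% of all probes did. The test was limma's after Benjamini-Hochberg adjustment over all probes. Differences of the 41 probes pointed mostly the same way and were small. All 35 probes listed higher in TgMsi2 had a TgMsi1 difference above 0, with a median of 0.19 (0.03 to 0.46). Among all probes 50.1% had a difference above 0. Among the other 373 probes listed higher in TgMsi2, 338 had one, with a median of 0.18, so the count is not set apart as particular to mitochondrial genes. The probes share arrays and are not independent. At an unadjusted p under 0.05 there were 3 of the 41 probes (7.32%), beside 7.32% of all probes. That count was 10 of 41 (24.4%) when the arrays of the line were fitted alone, beside 6.97% of all probes, and 7 of 41 (17.1%) with the replicate block, beside 8.58%.

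Those 3 were Crls1, Acaa2 and Etfdh. Crls1 read 10.15, 10.54, 9.91 and 10.07 in TgMsi1 and 9.75, 9.94, 9.53 and 9.61 in Wt(TgMsi1). The groups overlapped at 1 array on each side, and the difference was 0.46 (SE 0.12, limma unadjusted p = 0.00215, adjusted p = 0.297). One Acaa2 probe read 9.03, 8.96, 9.04 and 8.92 against 8.59, 8.29, 8.59 and 8.73, with no overlap and a difference of 0.44 (SE 0.15, limma adjusted p = 0.45), while its near-identical probes gave 0.22 and 0.32. Etfdh read 9.17, 9.36, 9.27 and 9.46 against 9.15, 9.09, 8.96 and 8.94, also without overlap, and differed by 0.28 (SE 0.11, limma adjusted p = 0.544). The next smallest p-values belonged to Adh5 (0.26, SE 0.13, limma adjusted p = 0.722) and Echs1 (0.29, SE 0.16, limma adjusted p = 0.762). Besides that Acaa2 probe and Etfdh, all 4 TgMsi1 arrays lay above all wild-type arrays at Acadm (difference 0.27) and Adh5. That makes 4 of 41 probes, all among the 35 listed higher in TgMsi2 (11.4%), beside 1.88% of all probes. Among the 373 other probes listed higher in TgMsi2 there were 21 (5.63%).

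The next TgMsi1 differences are those of reported genes with a TgMsi2 difference of at least 0.79. They were 0.34 (SE 0.23) for Ctsb, 0.16 (SE 0.16) for Chchd10 and 0.17 (SE 0.17) for Slc25a5. Acss1 had 0.14 (SE 0.16) and Oat 0.20 (SE 0.15). The 2 Adh1 probes gave 0.12 (SE 0.23) and 0.07 (SE 0.25), and Echs1 is given above. At smaller TgMsi2 differences, Got2 differed in TgMsi1 by 0.03 (SE 0.13) and Grn by 0.04 (SE 0.11). The 2 Dbi probes gave 0.30 (SE 0.18) and 0.07 (SE 0.22), and both read lowest among TgMsi1 arrays on replicate 4. The difference between the lines was not tested, because the members were chosen for their size in one of them.

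The probes listed lower in TgMsi2 had a median TgMsi1 difference of -0.13 (-0.25 to 0.19), and 4 of the 6 were below 0, beside 49.9% of all probes. Pcca read 9.79, 9.17, 9.92 and 9.85 in TgMsi1 against 10.06, 9.63, 9.86 and 10.12 in Wt(TgMsi1) at the junction probe, and 10.08, 9.31, 10.04 and 10.19 against 10.09, 10.07, 10.24 and 10.21 at the other. Replicate 2 was the low array at both, and the differences were -0.24 (SE 0.14) and -0.25 (SE 0.14). Without that array they were -0.07 and -0.05. Replicate 2 was also the array whose 6-probe median was lowest, at -0.52, where the other TgMsi1 arrays lay between -0.03 and 0.05, and without it the median difference of the 6 probes was -0.06. That median was -0.08 without Wt(TgMsi1) replicate 3. TgMsi1 replicate 2 is also the TgMsi1 array nearest to TgMsi2 on the first principal component. Coq10b differed by 0.06 (SE 0.13), Gpd2 by -0.09 (SE 0.11), Msrb3 by -0.16 (SE 0.13) and Azin2 by 0.19 (SE 0.22). The summed Leydig marker signal was 12872, 12812, 12314 and 9148 in TgMsi1 against 7062 to 11436 in Wt(TgMsi1), and TgMsi1 replicate 4, lowest in it, was also lowest in the 35-probe median at 0.02. The Sertoli markers summed to 29692 to 39510 against 27548 to 36069, the macrophage markers to 1426 to 1668 against 1371 to 1723, and Adipoq stood at 359 to 887 against 635 to 1887. Round spermatid markers summed to 10594, 6384, 9380 and 9448 in TgMsi1 against 9563 to 11494, with replicate 2 lowest, as at Pcca. Elongating spermatid markers (Gapdhs and Prm3) summed to 11725 to 16107 against 17138 to 20937, without overlap and again with replicate 2 lowest. Late spermatocyte markers (Ccna1 and Aurkc) summed to 3303 to 4017 against 3754 to 5051. Gapdhs and Ccna1, which gave most of these sums, were themselves listed lower in the TgMsi1 table. Nothing is therefore read from the lower sums or the lack of overlap. The part of these markers was not tested.

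The TgMsi1 table held 6 mitochondrial genes, with smaller differences. Its threshold was a fold of 1.2, against 1.5 in the TgMsi2 table. With so few genes and unlike thresholds, the absence of shared genes is not read as a difference between the lines. Cmc1, which acts in the assembly of cytochrome c oxidase, read 11.20, 10.87, 11.26 and 10.98 in TgMsi1 and 10.64, 10.78, 10.62 and 10.57 in Wt(TgMsi1), a difference of 0.42 (SE 0.11) without overlap. Scp2, a sterol and lipid carrier whose long form is a peroxisomal thiolase, was higher by 0.33 (SE 0.10), Ssbp1, the single-strand binding protein of mitochondrial DNA, by 0.27 (SE 0.07), Pdk3, a kinase that inhibits pyruvate dehydrogenase, by 0.27 (SE 0.09), and Atp5l, a subunit of ATP synthase, by 0.26 (SE 0.07). Mfn1, the outer membrane GTPase that fuses mitochondria, was lower at both probes, with differences of -0.34 (SE 0.12) and -0.30 (SE 0.10). Its probes share 47 of their bases and count as 1 measurement. It read 9.84, 9.72, 9.68 and 9.71 in TgMsi1 and 10.10, 10.09, 9.94 and 10.16 in Wt(TgMsi1) at one of them, with every transgenic array below every wild-type array.

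In the TgMsi2 line, whose differences did not choose these 7 probes, Cmc1 and Ssbp1 rose and the other 5 probes did not pass. Of all probes, 11.5% passed. Cmc1 read 11.13, 11.33, 10.97 and 11.01 in TgMsi2 and 10.76, 10.33, 10.75 and 10.63 in Wt(TgMsi2). All 4 transgenic arrays lay above all 4 wild-type arrays, as in the TgMsi1 line, and the difference was 0.49 (SE 0.11, limma adjusted p = 0.0113). That is 1.41-fold, under the 1.5-fold threshold of the TgMsi2 table. Unlike the members listed higher in TgMsi2, Cmc1 was highest on TgMsi2 replicate 2. Without TgMsi2 replicates 1 and 3 the Cmc1 difference was 0.55 and the limma adjusted p was 0.0887.

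Ssbp1 read 9.62, 9.47, 9.52 and 9.36 in TgMsi2 and 9.18, 9.33, 9.20 and 9.36 in Wt(TgMsi2). The groups overlapped, and the difference was 0.22 (SE 0.07, limma adjusted p = 0.0429). The Ssbp1 call was lost without TgMsi2 replicate 1, 2 or 3 (adjusted p 0.145, 0.062 and 0.11), without Wt(TgMsi2) replicate 1, 2 or 3 (0.102, 0.0586 and 0.115), and, among arrays of the other line, without replicate 3 of TgMsi1 (0.0515) or without wild-type replicate 1 or 2 (0.0513 each), all in limma. Scp2 differed by 0.23 (limma adjusted p = 0.169), Pdk3 by 0.22 (0.146), Atp5l by 0.12 (0.338) and the Mfn1 probes by -0.03 and -0.07 (0.92 and 0.776).

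**Figure D4:**
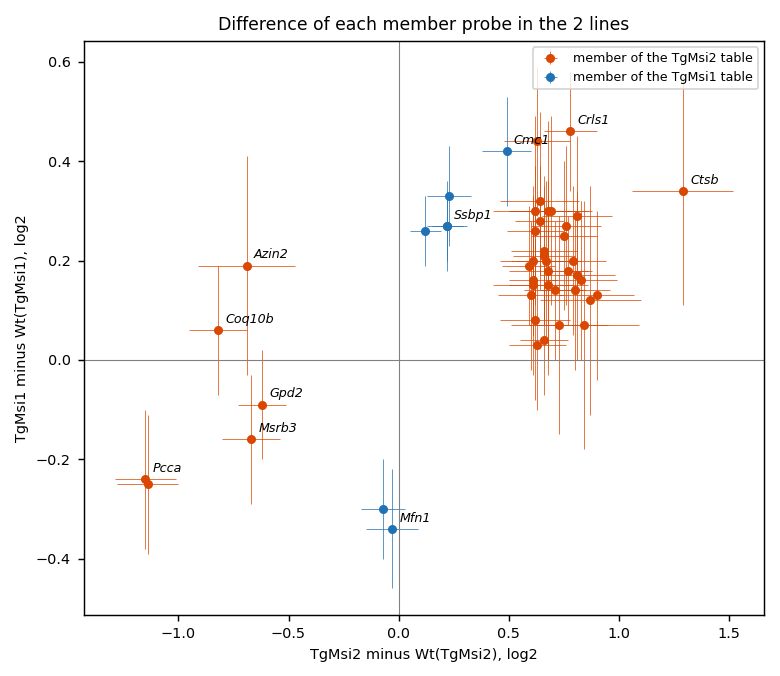
Log2 difference of each of the 48 member probes in TgMsi2 (x axis) and in TgMsi1 (y axis), transgenic minus wild type of the same line, with bars for the SE of the fit. Members of the TgMsi2 table (orange) lie between 0.59 and 1.29 or between -1.15 and -0.62 on the x axis because they were chosen there, and between -0.25 and 0.46 on the y axis.

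Lists of mitochondrial genes by pathway were set against the TgMsi2 table, as shares of the genes present on the array. Of 47 fatty acid oxidation genes on the array, 9 stood in the TgMsi2 table as higher (19.1%) and 1, Pcca, as lower, beside 2.03% and 1.43% of all 18097 gene symbols of the array. Of 22 antioxidant and redox genes, 3 were listed higher (Prdx3, Aldh2 and Mgst1, a microsomal glutathione transferase, 0.99 and 1.00 at 2 probes) and 1, Msrb3, lower. Of 79 genes of the respiratory chain and ATP synthase, Ndufa4 alone was listed, and of 88 genes of mitochondrial translation 0 were. Assembly factors gave 1 of 26 (Cox14, 0.63), pyruvate and citrate cycle enzymes 1 of 31 (Got2), carriers 1 of 46 (Slc25a5), and fusion, fission and cell death genes 0 of 36. The 36 import genes gave Timm8a1 (0.80) as higher and Mtx1 (-0.63) as lower. The lists were drawn up with results of these arrays known, and the tables hold only genes past their thresholds, so a gene outside them has no named value here.

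**Figure D5:**
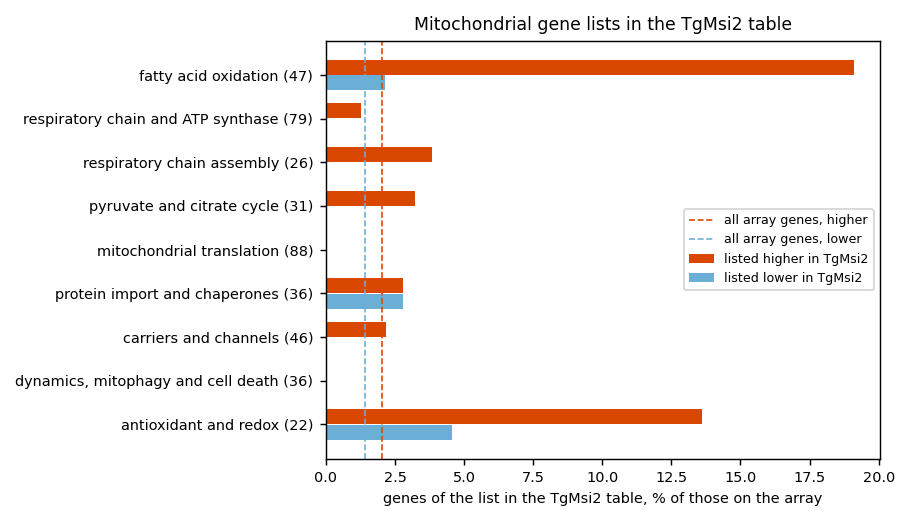
Share of the genes of each mitochondrial list on the array (number in parentheses) that stood in the TgMsi2 table as higher (orange bars) or lower (blue bars), in percent, with dashed lines for the same shares over all array genes. The bar for fatty acid oxidation reaches 19.1%, and mitochondrial translation has no bar.

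Among the same lists the TgMsi1 table held 0 of the 47 fatty acid oxidation genes. Over all array genes it listed 0.624% as higher and 0.635% as lower. A count of 0 in 47 is near these shares and is not read as a difference between the lines. The table held genes of translation (3 of 88), assembly (2 of 26) and carriers (2 of 46), among others. Tested in the TgMsi2 line, 3 of its 11 list genes passed in limma, 2 higher and 1 lower, where 11.5% of all probes and 82 of the 246 probes of the whole TgMsi1 table (33.3%) passed. Cmc1 rose, as above, and so did the mitochondrial ribosomal protein gene Mrps33 (0.33, adjusted p = 0.0275). Mrpl48, another mitochondrial ribosomal protein gene, was listed higher in TgMsi1 (0.28) but fell in TgMsi2 (-0.27, adjusted p = 0.0429). With arrays left out in turn, Mrps33 no longer passed when transgenic replicate 1 or 3 of the TgMsi2 line was dropped (limma adjusted p 0.0908 and 0.0916), nor when its wild-type replicate 2 or 3 was (0.0657 and 0.0787). Mrpl48 no longer passed without transgenic replicate 1, 3 or 4 of TgMsi2 (0.144, 0.0617 and 0.0605), without its wild-type replicate 1, 2 or 3 (0.109, 0.0548 and 0.115), with the replicate block (0.11), and, in the TgMsi1 line, without transgenic replicate 4 (0.0542) or wild-type replicate 1 or 2 (0.0524 and 0.0522). The assembly factor Cox20 had 0.30 in TgMsi1 and -0.13 in TgMsi2 (adjusted p = 0.111). Of the 20 list genes of the TgMsi2 table, 0 passed in the TgMsi1 line.

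Between the wild-type groups, Wt(TgMsi2) minus Wt(TgMsi1) had a median of 0.04 over the 48 probes (-0.21 to 0.40). The highest value, 0.40, was that of Azin2, whose wild-type arrays read 9.21, 8.73, 9.40 and 9.31 in one line and 8.82, 8.49, 8.83 and 8.94 in the other. Dbi at the junction probe (0.29), Atp5l (0.26), Gpd2 (0.26), Scp2 (0.24) and the Acaa2 probes (0.06 to 0.24) also read higher in Wt(TgMsi2). These values are a description, since the wild-type arrays took part in both selections. Near the thresholds, Hibadh (1.505-fold) and Hsd17b10 (1.517-fold) stood just inside the TgMsi2 table, and the nearest probe outside with an unadjusted p under 0.05 had 1.499-fold. Atp5l (1.2-fold) and Pdk3 (1.205-fold) stood nearest the threshold of the TgMsi1 table, and the nearest probe outside had 1.2-fold, as rounded.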

How the data were processed

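Total RNA of whole testis was read on 16 Illumina bead arrays, 4 per group, and groups came from the sample titles. The authors deposited log2 values of 25697 probes. GenomeStudio is named in the submitters' processing notes, and no source used here states the normalization. The sorted values of the 16 arrays differed by at most 0.00601 and the arrays' medians lay at 7.83, so the arrays share 1 distribution. The lowest log2 value was 7.37, so differences of dim probes may be understated. All 48 member probes had a mean log2 above 8. Arrays give no read depth, and their number limits the precision.

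The authors also deposited 1 comparison table per line, which gives a p-value, a ratio and a signed fold change (a score) per probe, per the file headers. The sources do not state the test behind them. These tables chose the members and name their genes, and no value is printed from them. Of the 48 member probes, 45 matched RefSeq by Entrez number. Dci is given as Eci1 and Adc as Azin2. In a further, unnormalized table the labels match none of its 128 per-array columns, which were not used. Its gene symbols were used to count the genes on the array.

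Each transgenic group was compared with its wild-type group in limma 3.58.1 under R 4.3.3, with 1 mean per group over all 16 arrays, eBayes, and Benjamini-Hochberg adjustment over 25697 probes at a threshold of 0.05. The fit was tested on simulated data. SE is that of the fit and SD that of 4 arrays. The contrast that chose a member is described without a test. The members and gene lists were chosen with earlier results of these data known, and the roles were assigned after the members were seen. The rule for named genes took member genes of the pathway lists, the 10 largest differences each way in TgMsi2, the 5 each way in TgMsi1, genes with over 1 probe, and those called, or with the 5 smallest p, in the other line. Of the remaining members, those reported are named as well. The values of 2 of the 42 genes are not reported here, and counts and medians include them.

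Same-numbered arrays of a line correlated, in their deviations from the group means, with r between 0.0241 and 0.438 in TgMsi1 and between -0.292 and 0.337 in TgMsi2. Unlike-numbered arrays had r between -0.401 and 0.323 in TgMsi1 and between -0.285 and 0.384 in TgMsi2. The main fit did not take the numbers to pair samples. In TgMsi1 every same-numbered r was positive, and whether the numbers pair samples in that line was not tested. Alternatives were the arrays of the line alone, an intensity trend with robust variance, array weights, probes with a mean log2 above 8, centring on the median, a replicate block, and leaving arrays out.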

Additional observations from a re-analysis of the deposited data

Results flagged for a closer look

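In 11 of 192 groups of 4 arrays over the 48 probes, 1 array lay far from the other 3. Chance flags about 1 in 20 groups, and probes of an array are not independent. TgMsi1 replicate 2 read low at both Pcca probes, at 9.17 where the other TgMsi1 arrays lay between 9.79 and 9.92, and at 9.31 where they lay between 10.04 and 10.19. TgMsi1 replicate 4 read low at 5 probes. It stood at 11.59 (the others 11.96 to 12.03) and 11.49 (12.05 to 12.07) for the 2 Dbi probes and at 9.54 (9.76 to 9.80) for Hsd17b10. It stood at 11.17 (11.51 to 11.52) for Ndufa4 and at 11.09 (11.56 to 11.65) for Mtch1. Wt(TgMsi1) replicate 2 read low for Tmem14c (10.18, the others 10.54 to 10.56) and for Aldh2 (12.22, the others 12.62 to 12.66). Wt(TgMsi1) replicate 4 read high at 1 Adh1 probe (8.55, the others 8.16 to 8.18). Wt(TgMsi2) replicate 3 read low for Tmem14c (10.20, the others 10.44 to 10.49).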

How the results depend on the processing

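The count of 0 TgMsi2-table probes passing in the TgMsi1 line was 0 in all alternatives run. The median of the probes listed higher ran from 0.13 to 0.25 with each array left out, with 33 to 35 of them above 0, and the median of those listed lower ran from -0.18 to -0.06. The 2 TgMsi1-table probes passing in TgMsi2 became 1 with the arrays of the line alone, 1 with an intensity trend and robust variance, and 1 with the replicate block. They were 1 to 2 with each array left out and 0 without TgMsi2 replicates 1 and 3 together (2 at an unadjusted p under 0.05). The cause was not tested. The replicate block left 0 TgMsi2-table probes passing in TgMsi1 and, among the members and list genes tested in the line that did not choose them, it ended the calls of Ssbp1 (adjusted p = 0.0824 in limma) and Mrpl48 (0.11). Ssbp1 lost its call in 13 of 23 alternatives (limma adjusted p 0.0184 to 0.455) and Cmc1 in 1 of 23 (0.00505 to 0.0887). Mrps33 lost its call in 5 of 23 (0.0131 to 0.377) and Mrpl48 in 13 of 23 (0.0288 to 0.303).

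Small differences turned sign when arrays were left out. The Mfn1 probes in TgMsi2 ran from -0.12 to 0.08 and from -0.14 to 0.04 with each array left out, and were 0.05 and 0.01 without TgMsi2 replicates 1 and 3. In TgMsi1, with each array left out, Grn ran from -0.01 to 0.08, Coq10b from -0.02 to 0.14, Got2 from -0.04 to 0.11, Ywhaz from -0.03 to 0.24, Dpysl2 from -0.02 to 0.17, and 1 Adh1 probe from -0.00 to 0.15. In the contrasts that chose the members, leaving out each array gave medians of 0.56 to 0.80 for those listed higher in TgMsi2, -0.80 to -0.69 for those listed lower, and 0.27 to 0.32 for those listed higher in TgMsi1.

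Over all probes, limma passed 3 in TgMsi1, 0 with the arrays of the line alone, 17 with the replicate block (and 3170 in TgMsi2) and 30 without Wt(TgMsi1) replicate 2. It passed 2960 in TgMsi2 and 201 without TgMsi2 replicates 1 and 3. With 4 arrays per group, small differences in TgMsi1 may have been missed. Planned steps were all run.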
